A study of Mus musculus with 14 samples.

Results

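Transcripts of 9 myeloid transcription factors, Cebpa, Cebpb, Cebpd, Cebpe, Gfi1, Spi1, Irf8, Klf4 and Myb, were followed in stem cells, progenitors and stromal cultures of mouse bone marrow exposed to PBS or IL-1β. The genes were chosen by name for their known part in granulocyte and monocyte development and are 9 of the 55487 genes counted. They and the gene lists below were chosen with earlier results of these data known, so shares over all genes are for scale only. RNA was sequenced from 14 libraries. LSK cells (Lin-Sca1+c-kit+, the fraction that holds the stem cells) and LK cells (Lin-c-kit+, the myeloid progenitors, labelled MP) came from C57BL/6 recipients of marrow from Mx1Cre; Jak2V617F heterozygous donors. Cre had been switched on with pI-pC in the donors. All recipients, controls included, had been lethally irradiated and held donor cells with the mutant allele, and were then injected with PBS (3 libraries in each population) or with IL-1β at 0.5 µg per dose, 3 doses per week for 16 weeks (2 libraries in each). The Mx1 promoter is an interferon-responsive promoter that is not restricted to blood cells, and residual host cells cannot be told from donor cells in these tables. Mesenchymal stromal cells (MSC) were grown for 21 days from wild-type C57BL/6 marrow and given PBS (2 libraries) or IL-1β at 5 ng/ml (2 libraries) for 72 hours. An age is stated for the mice of the study as a whole and not by group, and whether each library came from a single animal is not given in the sources used here.

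Granulocytes and monocytes arise from shared progenitors, and the balance between these fates is set by a small circuit of transcription factors. Spi1 (encoding PU.1) and Cebpa open the myeloid programme, Gfi1 and Cebpe carry cells towards granulocytes, and Irf8 and Klf4 carry them towards monocytes and dendritic cells, with Gfi1 and Irf8 acting against each other. Cebpb and Cebpd are the C/EBP members best known for their induction by inflammatory cytokines, and Myb maintains immature proliferating progenitors.

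The libraries held between 4393233 and 30871055 counted read pairs. In both LSK and LK cells every IL-1β library was shallower than every PBS library, so depth and treatment cannot be told apart. Library 2 of the PBS-treated LSK cells stood apart. Between it and the other PBS libraries 2442 and 2571 of 13839 genes differed by more than 2-fold, against 554 between those other libraries. The IL-1β libraries of LSK cells also differed, at 1491 genes, against 242 between those of LK cells, and LSK IL-1β library 2 was the shallowest of all. Factor results that rest on PBS library 2 of the LSK cells are given with and without it, and results of gene lists and markers with it only. The stem cell antigen gene Ly6a (encoding Sca1) was at 34.1 ± 6.81 CPM in LSK and 0.589 ± 0.289 CPM in LK cells with PBS (mean ± SD, n = 3 each), in the direction of the sort. CPM is the count of read pairs scaled to library size with TMM factors, and p-values measure only the spread between these libraries. In bulk RNA, fewer cells of a type and less RNA per cell cannot be told apart.

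All 9 genes are protein-coding, and positions are those of the deposited tables on GRCm38. The C/EBP genes lie on 4 chromosomes: Cebpa (ENSMUSG00000034957) at chr7:35119293-35121928, Cebpb (ENSMUSG00000056501) at chr2:167688915-167690418, Cebpd (ENSMUSG00000071637) at chr16:15887286-15891031, all on the plus strand, and Cebpe (ENSMUSG00000052435) at chr14:54710360-54712174 on the minus strand. Spi1 (ENSMUSG00000002111) lies at chr2:91082390-91115756 and Irf8 (ENSMUSG00000041515) at chr8:120736358-120756694, both on the plus strand. Gfi1 (ENSMUSG00000029275) lies at chr5:107716657-107726036, Klf4 (ENSMUSG00000003032) at chr4:55527143-55532466 and Myb (ENSMUSG00000019982) at chr10:21124935-21160984, all on the minus strand. The span of Irf8 overlaps that of Gm20388 on the same strand, but the exons of the genes share 0 bases, and each of the other genes that overlap a member lies on the opposite strand, which the counting separated.

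RefSeq promoter sequences (GRCm38.p6) were matched for 6 of the 9 genes, and the 250 bases before the start site are shown for 5 of them, the factors that moved in opposite directions in LK cells. Both strands were searched for a C/EBP site (TTGCNNAA), a PU.1 site (GGAAGT), a STAT site of the GAS type (TTCNNNGAA) and the NF-kB consensus, which were present in 9.57%, 19.7%, 7.02% and 3.9% of 32841 promoters of this length. Capitals mark the matches. Irf8 (chr8:120736108-120736357, plus strand) held 2 GAS matches, starting 171 and 153 bases before the start site, and Gfi1 (chr5:107725806-107726055, minus strand) held 1 C/EBP match, starting 143 bases before it. For each of these genes the table held 2 promoters, of which the one nearest to the start of the deposited gene span was used. The Gfi1 start site used lies inside that span, so most of its window does too. Cebpa (chr7:35119043-35119292, plus strand), Cebpb (chr2:167688665-167688914, plus strand) and Klf4 (chr4:55532476-55532725, minus strand) held none of these letters in this window, nor did Myb. A match describes the letters only.
Irf8: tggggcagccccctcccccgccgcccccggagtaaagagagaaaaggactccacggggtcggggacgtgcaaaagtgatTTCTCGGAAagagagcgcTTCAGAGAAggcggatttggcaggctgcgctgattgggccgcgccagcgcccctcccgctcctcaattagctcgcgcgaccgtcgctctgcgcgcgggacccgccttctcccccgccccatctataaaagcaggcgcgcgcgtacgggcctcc
Klf4: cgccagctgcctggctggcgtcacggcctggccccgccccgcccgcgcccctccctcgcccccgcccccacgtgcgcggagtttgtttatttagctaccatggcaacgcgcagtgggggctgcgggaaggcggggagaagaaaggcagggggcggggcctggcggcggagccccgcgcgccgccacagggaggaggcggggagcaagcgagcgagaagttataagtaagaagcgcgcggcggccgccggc
Gfi1: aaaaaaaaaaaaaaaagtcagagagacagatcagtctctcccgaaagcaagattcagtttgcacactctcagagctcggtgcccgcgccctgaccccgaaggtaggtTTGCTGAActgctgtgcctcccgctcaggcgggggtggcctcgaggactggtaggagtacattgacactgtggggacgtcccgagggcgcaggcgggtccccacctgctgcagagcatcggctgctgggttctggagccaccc
Cebpa: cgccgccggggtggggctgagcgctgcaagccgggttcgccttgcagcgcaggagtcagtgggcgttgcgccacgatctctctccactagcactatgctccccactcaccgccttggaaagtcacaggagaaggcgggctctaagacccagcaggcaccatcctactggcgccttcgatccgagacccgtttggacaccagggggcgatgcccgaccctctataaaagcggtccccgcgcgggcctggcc
Cebpb: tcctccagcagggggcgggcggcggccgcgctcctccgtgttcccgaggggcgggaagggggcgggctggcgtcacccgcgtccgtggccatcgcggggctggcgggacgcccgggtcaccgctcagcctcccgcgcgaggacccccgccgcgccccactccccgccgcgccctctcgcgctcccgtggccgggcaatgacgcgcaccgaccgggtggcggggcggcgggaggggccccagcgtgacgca

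Per length, Myb, Cebpa and Spi1 led in PBS-treated LSK cells with mean levels of 65.4, 61.4 and 58.4 RPKM (CPM divided by the exon length of the gene in kilobases), and the libraries of these 3 genes overlapped. Irf8 (21.7 RPKM), Cebpb (14.97 RPKM) and Gfi1 (11.2 RPKM) formed a middle group, each overlapping the next, and Cebpd, Cebpe and Klf4 lay between 1.66 and 2.53 RPKM. In PBS-treated LK cells Myb (61.2 RPKM), Cebpa (42.6 RPKM) and Spi1 (28.2 RPKM) again led with overlapping neighbours, and Klf4 was again lowest at 1.19 RPKM. In IL-1β-treated cells of both populations Cebpa led, at 154 RPKM in LSK and 107 RPKM in LK cells, separated from the next gene in every library, while Irf8 (3.79 and 2.37 RPKM) and Klf4 (0.0804 and 0.127 RPKM) were the lowest pair.

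**Figure D1:**
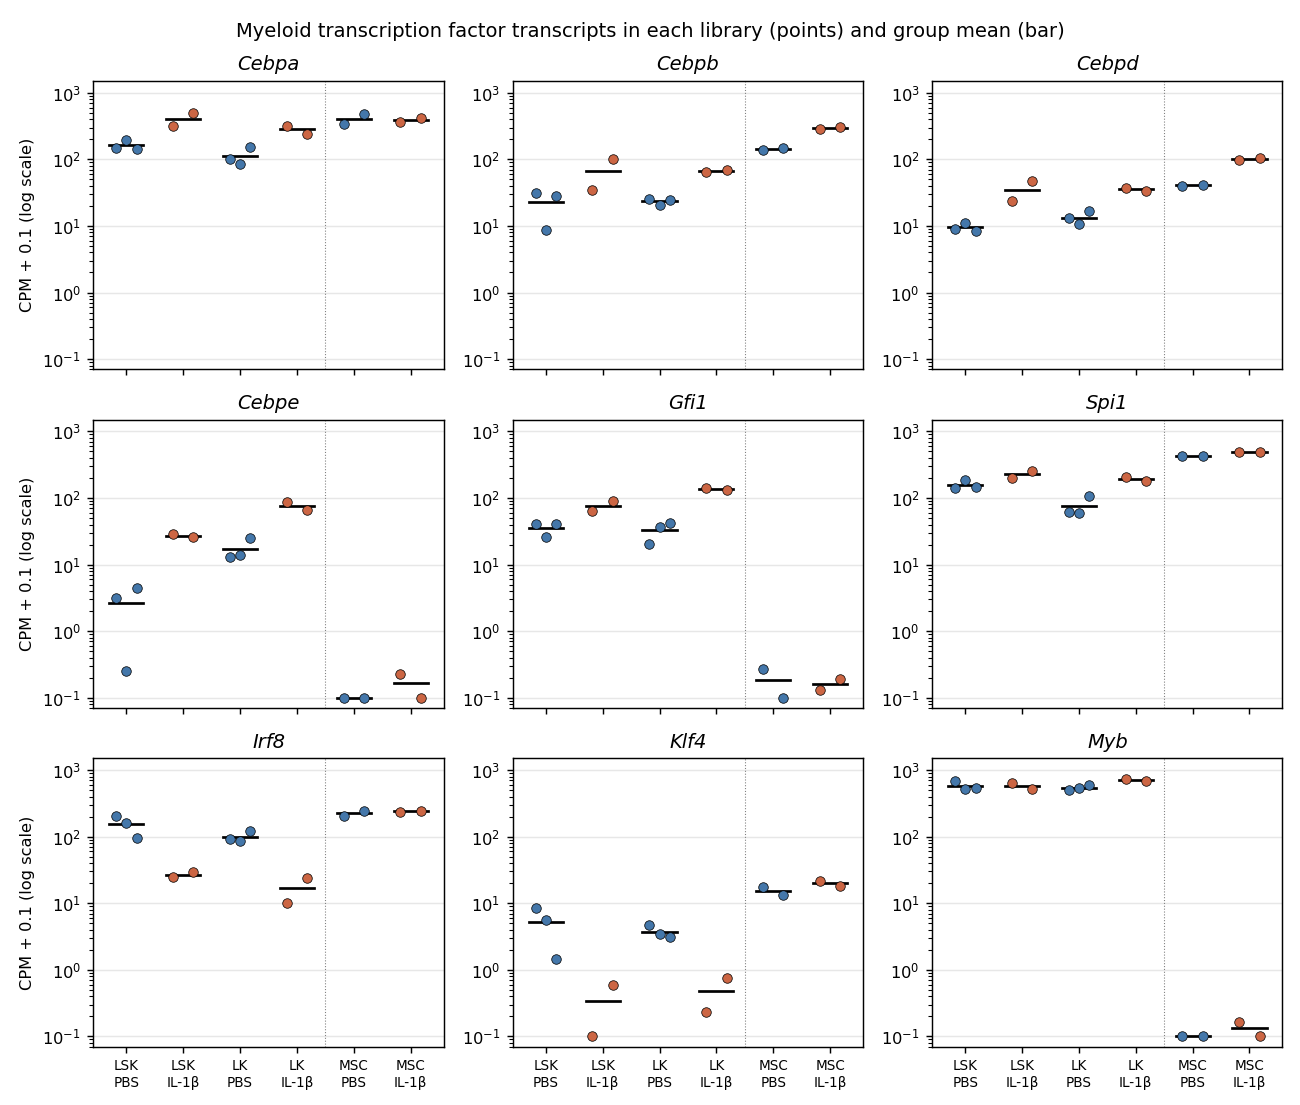
Level of each transcription factor in every library, as CPM + 0.1 on a log scale, with PBS libraries in blue, IL-1β libraries in orange and a bar at the group mean; MSC were normalized separately. The orange points lie above the blue ones for Cebpa, Cebpb, Cebpd, Cebpe, Gfi1 and Spi1 in LSK and LK cells and below them for Irf8 and Klf4, and in MSC Cebpe, Gfi1 and Myb sit at the bottom of the scale.

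In LK cells from IL-1β-treated mice, transcripts of Cebpa, Cebpb, Cebpd, Cebpe, Gfi1 and Spi1 rose, and those of Irf8 and Klf4 fell. Calls required an adjusted p below 0.05 together with a log2 fold change beyond 0.5 in either direction. By that rule 8 of the 9 factors were called, 6 higher and 2 lower, where 9.34% of the 12835 genes tested were called, 6.77% higher and 2.57% lower. The median log2 fold change of the 9 factors was 1.35, against -0.03 over all genes. The PBS and IL-1β libraries did not overlap for any of the 9, with 7 higher and 2 lower, where 23.5% of all genes were higher and 22.2% lower without overlap. An unadjusted p under 0.05 was reached by 24.7% of all genes.

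In LSK cells Irf8 fell and was the 1 factor of 9 that was called. The fold changes of all 9 had the sign of the LK comparison, with Myb near 0, but the libraries spread more. There 0.632% of 13132 genes were called, 0.312% lower. The libraries did not overlap for 6 factors that were higher and 2 that were lower, where 18.2% of all genes were higher and 21.4% lower without overlap, and 7 of the 9 had an unadjusted p under 0.05, against 18.5% of all genes. The median log2 fold change was 1.13, against -0.06 over all genes. Without PBS library 2, 4 factors were called (Cebpa, Cebpd, Cebpe and Irf8), and without PBS library 3, 2 were (Cebpe and Irf8). Without IL-1β library 1 or 2 no factor was called, though 7 and 6 then had an unadjusted p under 0.05 at the same fold threshold. DESeq2 called 7, all but Spi1 and Myb. Over all genes the calls went from 83 to 480 without PBS library 2, 161 without PBS library 3 and 891 with DESeq2, and they were 6 and 3 without IL-1β library 1 and 2.

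**Figure D2:**
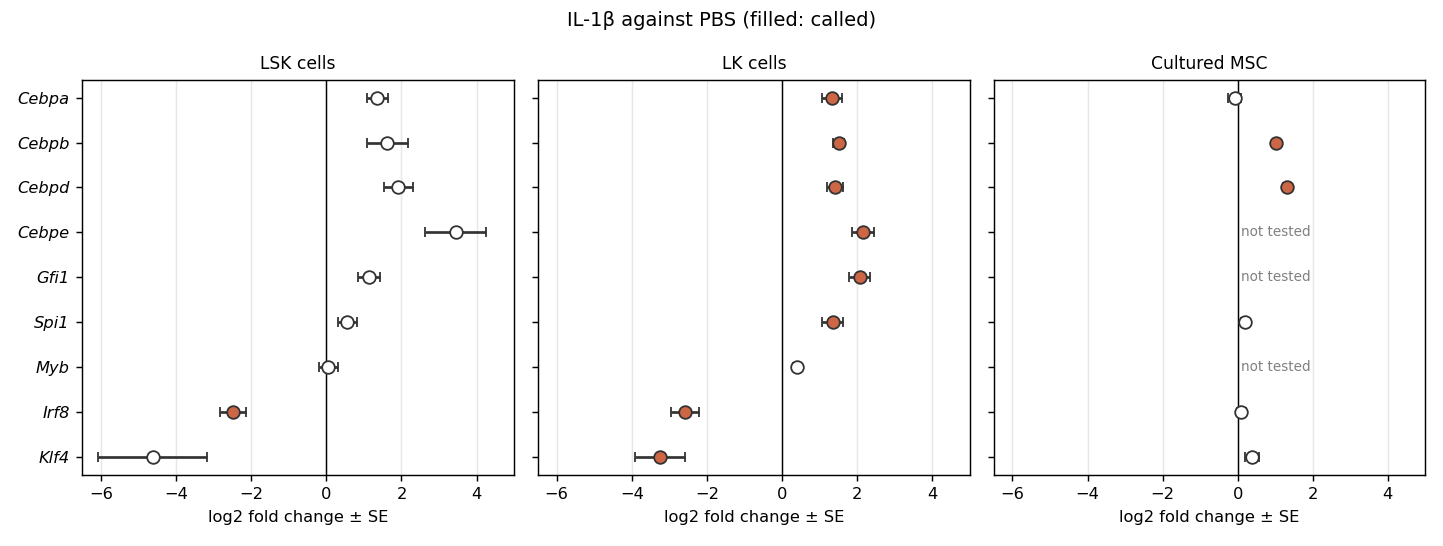
Log2 fold change of each factor between IL-1β and PBS with its standard error, by edgeR, in LSK cells, LK cells and cultured MSC; filled points were called. In LK cells all points but Myb are filled. In LSK cells Irf8 alone is filled, although every point lies on the same side of 0 as in LK cells, and in MSC Cebpb and Cebpd are filled.

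Among the C/EBP factors, Cebpe, which drives the making of secondary granules, had the largest log2 fold change. In LK cells it stood at 12.7, 13.97 and 25.2 CPM with PBS and at 85.7 and 67.1 CPM with IL-1β. All IL-1β libraries lay above all PBS libraries, and the log2 fold change was 2.15 ± 0.30 (SE, edgeR, adjusted p = 0.00885). The LSK libraries stood at 3.03, 0.155 and 4.43 CPM with PBS, the lowest value being 2 read pairs in library 2, and at 28.6 and 25.7 CPM with IL-1β. The log2 fold change was 3.44 ± 0.82 and missed the threshold (edgeR, adjusted p = 0.0882), whereas it was 2.93 without PBS library 2 (adjusted p = 0.0228) and 4.15 without PBS library 3 (adjusted p = 0.0125).

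Cebpa, required for the step from common myeloid to granulocyte and monocyte progenitors, was already abundant with PBS. In LK cells it was at 101, 85.2 and 151 CPM with PBS and at 322 and 242 CPM with IL-1β, giving a log2 fold change of 1.33 ± 0.26 (SE, edgeR, adjusted p = 0.027). The LSK libraries were at 149, 195 and 142 CPM with PBS and at 321 and 491 CPM with IL-1β. The groups did not overlap in either population, and the LSK value of 1.36 ± 0.27 was not called (edgeR, adjusted p = 0.0636), but was without PBS library 2 (1.55, adjusted p = 0.0366).

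Cebpb, the factor of granulocyte production under inflammatory demand, was even across LK libraries. It stood at 25.3, 20.4 and 24.6 CPM with PBS and at 64.6 and 68.2 CPM with IL-1β, giving a log2 fold change of 1.51 ± 0.14 with the smallest adjusted p of the 9 factors (edgeR, 0.00128). Cebpb in LSK cells was at 31.1, 8.45 and 28.1 CPM with PBS and at 34.7 and 101 CPM with IL-1β, so library 2 was low among the PBS libraries and the lower IL-1β library was barely above the higher PBS ones. The LSK log2 fold change of 1.62 ± 0.55 was not called (edgeR, adjusted p = 0.181). It was 1.25 without PBS library 2 (adjusted p = 0.141), 2.19 without IL-1β library 1 (adjusted p = 0.176) and 0.69 without IL-1β library 2 (adjusted p = 0.772), so its size rested on single libraries.

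Cebpd, an acute-phase member of the family, stood at 12.9, 10.5 and 16.4 CPM with PBS and at 37.1 and 33.5 CPM with IL-1β in LK cells, and it rose by a log2 fold change of 1.42 ± 0.21 (SE, edgeR, adjusted p = 0.00601). LSK libraries held 8.94, 11.1 and 8.39 CPM with PBS and 23.2 and 47.1 CPM with IL-1β. The LSK libraries with IL-1β lay on either side of the LK ones, and the log2 fold change of 1.92 ± 0.38 was not called (edgeR, adjusted p = 0.0635), but was without PBS library 2 (2.07, adjusted p = 0.0411).

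Gfi1, a repressor that favours granulocytes over monocytes, was at 19.96, 36.0 and 41.9 CPM with PBS and at 142 and 133 CPM after IL-1β in LK cells. The IL-1β libraries were close to each other and far above the PBS libraries, with a log2 fold change of 2.07 ± 0.28 (SE, edgeR, adjusted p = 0.00957). Gfi1 in LSK cells was at 41.1, 25.7 and 40.5 CPM with PBS and at 62.7 and 89.7 CPM with IL-1β, without overlap but with a smaller log2 fold change of 1.13 ± 0.29 that was not called (edgeR, adjusted p = 0.109), nor without PBS library 2 (0.97, adjusted p = 0.0728).

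Spi1, whose product PU.1 acts at a graded dose in myeloid and lymphoid fate, was at 61.0, 58.5 and 108 CPM with PBS and at 203 and 182 CPM with IL-1β in LK cells. It rose by a log2 fold change of 1.35 ± 0.28 (SE, edgeR, adjusted p = 0.0341). In LSK cells it was at 139, 188 and 145 CPM with PBS and at 201 and 253 CPM with IL-1β, a difference of 0.56 ± 0.25 on the log2 scale that was not called (edgeR, adjusted p = 0.272), nor without PBS library 2 (0.74, adjusted p = 0.0889). The LSK libraries with PBS thus held more Spi1 than the LK libraries with PBS, and the IL-1β libraries of the populations lay near each other.

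Myb changed least. It was at 506, 544 and 591 CPM with PBS and at 746 and 697 CPM with IL-1β in LK cells, where its adjusted p was under 0.05 but its log2 fold change of 0.40 ± 0.11 was below the fold threshold (edgeR, adjusted p = 0.0475). In LSK cells it was at 685, 523 and 546 CPM with PBS and at 650.1 and 523 CPM with IL-1β, with overlapping groups and a log2 fold change of 0.05 ± 0.25 (edgeR, adjusted p = 0.938), or 0.01 without PBS library 2.

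Irf8, the factor needed for monocytes and dendritic cells, fell in both populations. In LSK cells it was at 206, 158 and 95.4 CPM with PBS and at 24.6 and 28.9 CPM with IL-1β, giving a log2 fold change of -2.48 ± 0.35 (SE, edgeR, adjusted p = 0.0207). In LK cells it was at 92.3, 86.2 and 121 CPM with PBS and at 9.83 and 23.6 CPM with IL-1β, giving a log2 fold change of -2.59 ± 0.38 (adjusted p = 0.0122). The lowest PBS library of either population was well above the highest IL-1β library of either. In LSK cells the call was lost when IL-1β library 1 (-2.38, edgeR, adjusted p = 0.138) or IL-1β library 2 (-2.56, adjusted p = 0.227) was left out, and held without PBS library 2 (-2.43, adjusted p = 0.0356). In LK cells it held with each library left out in turn, with a log2 fold change of -2.09 without IL-1β library 1 and -3.33 without IL-1β library 2.

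Klf4, a factor of monocyte differentiation that works downstream of Irf8, was scarce and fell almost to the limit of detection. In LK cells 57, 64 and 42 read pairs with PBS (4.55, 3.30 and 3.02 CPM) stood against 1 and 4 with IL-1β (0.133 and 0.643 CPM). Pooled over libraries this was 9.77-fold lower, with an exact 95% interval of 4.1 to 30.5 that covers counting error only, and the fitted log2 fold change was -3.25 ± 0.67 (SE, edgeR, adjusted p = 0.0205). In LSK cells 111, 70 and 23 read pairs with PBS (8.41, 5.42 and 1.34 CPM) stood against 0 and 2 with IL-1β. The 0 in IL-1β library 1 allows up to 0.355 CPM at 3 read pairs. Pooled, the LSK level was 29.5-fold lower (8.07 to 246), but the PBS libraries differed widely and the fitted change was not called (-4.63 ± 1.45, edgeR, adjusted p = 0.153), nor was it without PBS library 2 (-4.61, adjusted p = 0.111). Single libraries set these sizes. Without IL-1β library 1 and 2 the LK value was -2.48 and -4.66, neither called (edgeR, adjusted p = 0.207 and 0.0538). In LSK cells it was -3.30 without IL-1β library 1 (edgeR, adjusted p = 0.341), and -9.02 when IL-1β library 2 was left out and the library at 0 remained, a value that depends on the prior count.

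The count of 8 factors called in LK cells depended on single libraries. It was 2 (Cebpb and Irf8) without IL-1β library 1, 4 (Cebpb, Cebpd, Cebpe and Irf8) without IL-1β library 2, 5 (Cebpb, Cebpd, Cebpe, Gfi1 and Irf8) without PBS library 1 or without PBS library 2, and 8 without PBS library 3. Each of these fits had 8 factors with an unadjusted p under 0.05 at the same fold threshold. Cebpb and Irf8 were thus called under every one of these omissions, and the direction of all 9 fold changes was the same in each. In a joint fit with the LSK libraries, however, Cebpb (edgeR, adjusted p = 0.13), Cebpe (adjusted p = 0.0744) and Klf4 (adjusted p = 0.153) were not called. Over all genes the calls numbered 66 and 331 without IL-1β library 1 and 2, 627, 603 and 2409 without PBS library 1, 2 and 3, and 489 in the joint fit, against 1199.

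A direct test of the difference between the LK and LSK responses, as an interaction over the 10 sorted libraries, called 0 of the 9 factors by edgeR and 0 by DESeq2, where edgeR called 0.0289% of 13839 genes. By edgeR 2 factors had an unadjusted p under 0.05, where 14.2% of all genes did. These were Gfi1, with a response larger in LK cells by 0.99 ± 0.43 on the log2 scale (adjusted p = 0.333), and Spi1, larger by 0.82 ± 0.37 (adjusted p = 0.346). For Cebpa the responses differed by 0.00 ± 0.38 and for Irf8 by -0.06 ± 0.51. For Cebpe (-1.24 ± 0.88) and Klf4 (1.49 ± 1.69, or 0.01 to 5.73 with a library left out) the error of the difference was wide, so a different call in LSK and LK cells does not show a different response.

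LK and LSK cells were also compared within each treatment, using the same libraries as the comparisons above. With PBS, 2 of the 9 factors were called, where 31.2% of 12737 genes were, 12.8% higher and 18.4% lower. Cebpe was higher in LK cells (17.3 ± 6.88 against 2.54 ± 2.18 CPM, mean ± SD, n = 3 each), with a log2 fold change of 2.79 ± 0.79 (SE, edgeR, adjusted p = 0.0271). Spi1 was lower in LK cells (75.9 ± 27.98 against 157 ± 26.7 CPM), with a log2 fold change of -1.02 ± 0.26 (edgeR, adjusted p = 0.0179). Neither was called without LK library 1 or without LK library 2, each fit having 2 factors with an unadjusted p under 0.05 at the same fold threshold, and Cebpe was not called without LSK library 1 or without the filter on low counts (2.77, edgeR, adjusted p = 0.168). Without LSK library 2 both were called (2.25 and -0.86), and without LSK library 3 Irf8 was called as well (-0.78, edgeR, adjusted p = 0.0264) and Cebpe was at 3.51. Without LK library 3, Spi1 (-1.37, adjusted p = 0.00388) and Cebpa (-0.77, adjusted p = 0.0349) were called by edgeR and Cebpe was not. The libraries of the other 7 factors overlapped between the populations, whereas 24.2% of all genes were higher and 26.2% lower in LK cells without overlap, and 43.2% had an unadjusted p under 0.05.

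With IL-1β, 1 of the 8 factors tested was called, where 8.32% of 11743 genes were, 4.14% higher, and Klf4 had too few read pairs to be tested. Cebpe was higher in LK cells (76.4 ± 13.2 against 27.2 ± 2.05 CPM, mean ± SD, n = 2 each), with a log2 fold change of 1.48 ± 0.22 (SE, edgeR, adjusted p = 0.015). Gfi1 was at 137 ± 5.88 CPM in LK and 76.2 ± 19.1 CPM in LSK cells, a log2 fold change of 0.86 ± 0.22 (edgeR, adjusted p = 0.0571). With the replicate number as a block, by which LK and LSK libraries were treated as pairs, Gfi1 was called too (0.87, edgeR, adjusted p = 0.00842). No factor was called without LK library 1, although 2 had an unadjusted p under 0.05 at the same fold threshold, as 27.8% of all genes had without that threshold when all libraries were used. Without LSK library 1 or 2, 4 factors were called, and Cebpb then had opposite signs (-0.62 and 0.94), since its LSK libraries stood at 34.7 and 101 CPM. Spi1, called with PBS, was at 192 ± 15.4 CPM in LK and 227 ± 36.5 CPM in LSK cells and differed by -0.24 ± 0.19 (edgeR, adjusted p = 0.455).

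**Figure D3:**
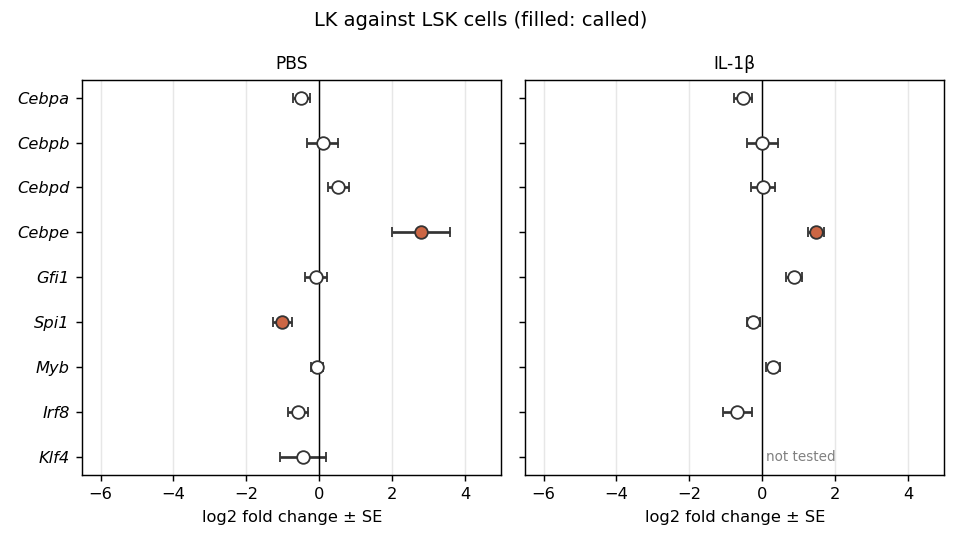
Log2 fold change of each factor between LK and LSK cells with its standard error, by edgeR, with PBS and with IL-1β; filled points were called, and positive values are higher in LK cells. Cebpe is filled under both treatments, Spi1 with PBS only, and the difference between those treatments was tested by the interaction, which was not called for either gene.

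Ratios between factors within a library, which library scaling nearly cancels, set the opposing factors against each other. They were computed as the log2 ratio of RPKM + 0.1, and 12 comparisons were made in this family. The ratio of Gfi1 to Irf8 was -1.18, -1.46 and -0.09 in LSK libraries with PBS and 2.46 and 2.75 with IL-1β. In LK libraries it was -1.05, -0.11 and -0.39 with PBS, against 4.90 and 3.60 with IL-1β. Irf8 thus exceeded Gfi1 per length in all 6 PBS libraries and Gfi1 exceeded Irf8 in all 4 IL-1β libraries, a shift of 3.52 in LSK cells (11.4-fold) and 4.77 in LK cells (27.2-fold). The sign depends on the exon lengths used (7055 bases for Irf8 and 3187 for Gfi1), and PBS values came as near to 0 as -0.09 and -0.11. In the shift these lengths nearly cancel. The LSK shift was 3.24 without PBS library 2, and the LK shift was 4.12 without IL-1β library 1 and 5.41 without IL-1β library 2. The exact two-sided permutation p was 0.2 in each (0.6 after Benjamini-Hochberg adjustment), the smallest that 3 against 2 libraries allow.

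The ratio of Spi1 to Gata1, the erythroid and megakaryocytic factor that PU.1 opposes, moved in LK cells. It was -2.08, -2.06 and -1.06 with PBS, against 0.76 and 0.32 with IL-1β, a shift of 2.28 (exact permutation p = 0.2, adjusted 0.6). Gata1 itself fell in LK cells, from 220.0 ± 14.7 to 120 ± 16.2 CPM, with a log2 fold change of -0.88 ± 0.12 (SE, edgeR, adjusted p = 0.00481). In LSK cells the ratio lay between 1.14 and 1.48 with PBS and at 1.62 and 1.37 with IL-1β, overlapping (shift 0.20, exact permutation p = 0.4, adjusted 0.75, or 0.29 without PBS library 2). Between populations with PBS it was lower in LK than in LSK cells by 3.03, without overlap (exact permutation p = 0.1, the smallest that 3 against 3 libraries allow, adjusted 0.6). The ratio of Cebpb to Cebpa overlapped between treatments in LSK cells (shift 0.29, exact permutation p = 1.0) and in LK cells (shift 0.15, exact permutation p = 0.8), both 1.0 after adjustment. The LSK shift was -0.45 without PBS library 2.

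**Figure D4:**
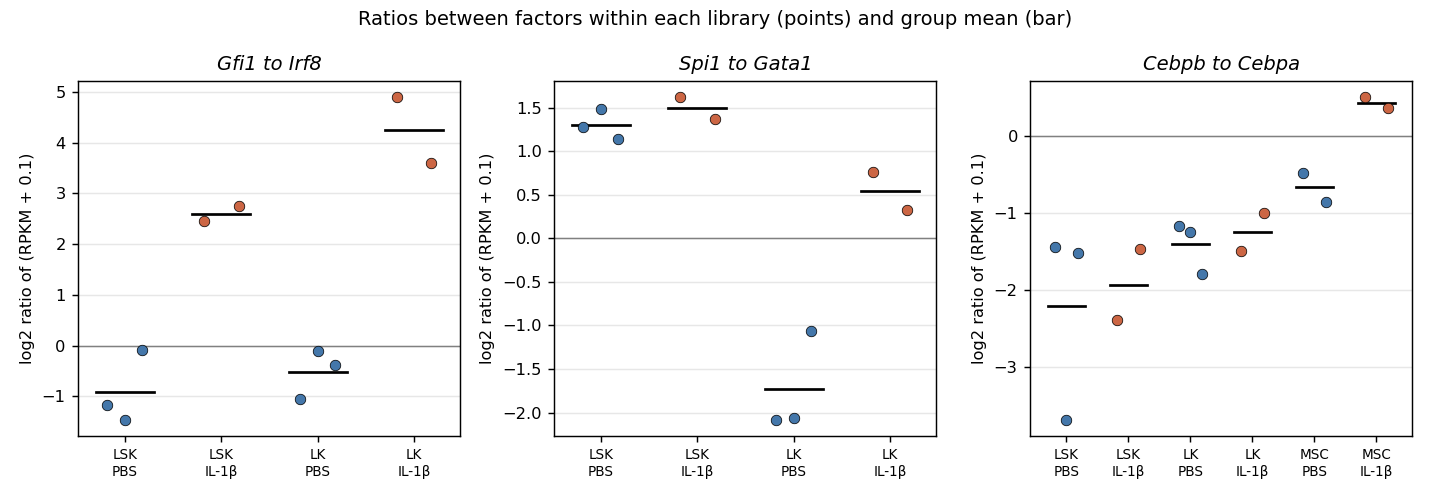
Log2 ratio of RPKM + 0.1 between factors in every library, with PBS libraries in blue, IL-1β libraries in orange and a bar at the group mean. The Gfi1 to Irf8 and Spi1 to Gata1 panels hold LSK and LK cells only. In them the orange points lie above 0 and the blue ones below it for Gfi1 to Irf8, Spi1 to Gata1 crosses 0 in LK cells only, and Cebpb to Cebpa lies above 0 in MSC with IL-1β.

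Genes that these factors are known to regulate were counted next. Of 15 granulocyte genes (growth factor receptors and granule proteins), 9 were called higher in LK cells and 0 lower, where 6.77% of all genes were called higher, with a median log2 fold change of 1.97. The largest were Lcn2 (5.65 ± 0.31, a siderophore-binding granule protein), Cd177 (4.60 ± 0.47, a neutrophil surface protein), Ctsg (2.13 ± 0.35) and Prtn3 (2.08 ± 0.31, both serine proteases of primary granules). In LSK cells 4 of 14 tested were called, all higher, namely Lcn2 (6.71 ± 0.44), Elane (3.32 ± 0.39, neutrophil elastase), Prtn3 (2.34 ± 0.38) and Mpo (1.91 ± 0.28, myeloperoxidase), with a median of 1.94. Of all genes, 0.32% were called higher in LSK cells. Elane stood at 86.9 ± 37.9 CPM in LSK cells with PBS and 844 ± 226 CPM with IL-1β (mean ± SD, n = 3 and 2).

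Of 10 monocyte and dendritic genes, 5 were called lower in LK cells and 0 higher, where 2.57% of all genes were called lower, with a median log2 fold change of -0.63. They were Ly86 (-3.04 ± 0.52), Csf1r (-2.49 ± 0.40, the receptor for the monocyte growth factor), Ctss (-2.49 ± 0.31, a lysosomal protease of antigen presentation), Cx3cr1 (-1.13 ± 0.26) and Ms4a6c (-0.96 ± 0.20), the last chosen after its value was seen, to complete the count. Of the 10, 4 had positive fold changes in LK cells, none of them called. The summed level of the 10 overlapped there between treatments, at 412 to 667 CPM with PBS and 455 to 533 CPM with IL-1β. In LSK cells edgeR called 0 of 10, where 0.632% of all genes were called, and the median was -0.13. Of the 10, 2 were called by DESeq2 and 4 had an unadjusted p under 0.05, as did 18.5% of all genes. Of 4 Myb targets (Kit, Myc, Bcl2 and Ccnb1) edgeR called 0 in LSK and 0 in LK cells, with 1 at an unadjusted p under 0.05 and 1 called by DESeq2 in each population.

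Relatives of the 9 factors in the same families were mixed. For scale, here and for the cofactors below, edgeR called 9.34% of all genes in LK cells, 6.77% higher and 2.57% lower. In LSK cells it called 0.632%, and 18.5% had an unadjusted p under 0.05. Of 21 tested in LK cells, 2 were called higher, Klf7 (1.64 ± 0.22) and Klf9 (0.66 ± 0.15), and 3 lower, Gfi1b (-1.41 ± 0.22) and Klf1 (-1.13 ± 0.16), both erythroid factors, and Irf9 (-0.84 ± 0.17), a partner of STAT proteins in interferon signalling. In LSK cells edgeR called 0 of 23, with 8 at an unadjusted p under 0.05 and 3 called by DESeq2. Gfi1b, the paralogue of Gfi1, was therefore called lower in the LK cells in which Gfi1 was called higher. Of 23 cofactors and regulators tested, 1 was called in LSK cells, Id1 (4.60 ± 0.67, an inhibitor of basic helix-loop-helix factors), and 4 in LK cells: Id1 (2.52 ± 0.38) and Hoxa9 (1.00 ± 0.20) higher, Trib2 (-0.88 ± 0.15, which promotes C/EBPα degradation) and Zeb2 (-0.52 ± 0.12) lower.

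**Figure D5:**
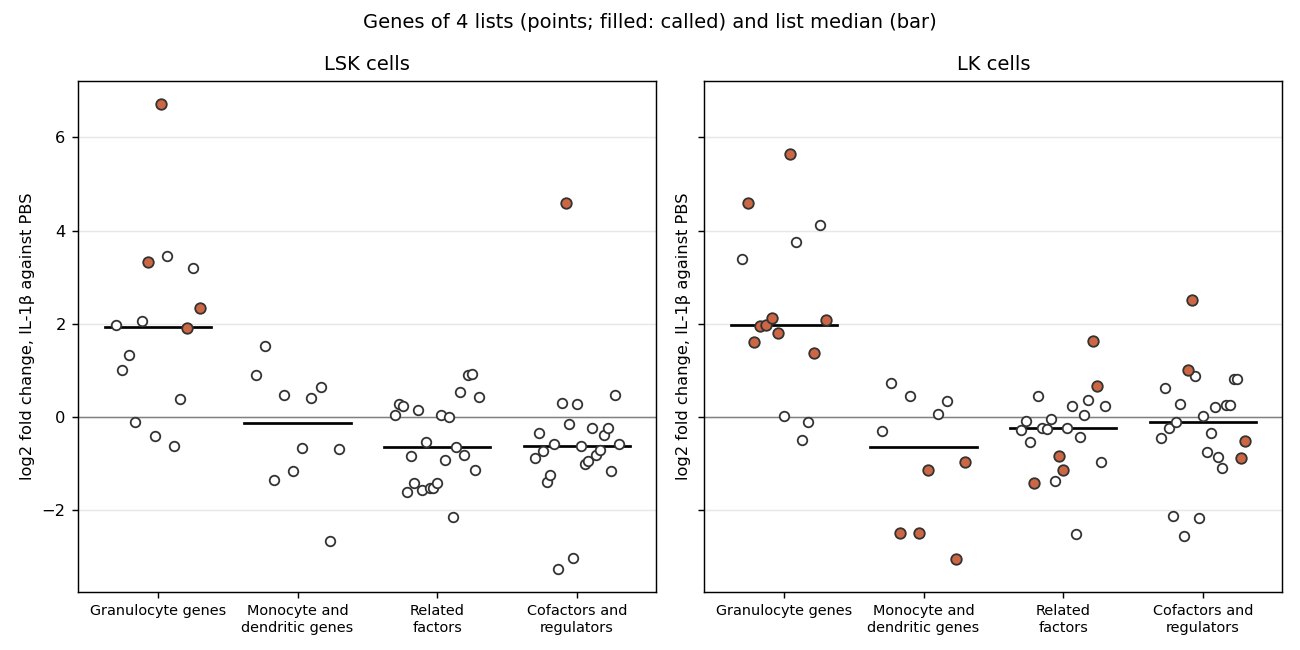
Log2 fold change between IL-1β and PBS of the genes of 4 lists in LSK and LK cells, by edgeR, with filled points called and a bar at the list median. Granulocyte genes lie mostly above 0 in both populations (medians 1.94 and 1.97). The 5 filled monocyte and dendritic genes in LK cells lie below 0, and 4 unfilled ones lie above it.

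Between populations with PBS, where 12.8% of all genes were called higher and 18.4% lower, 6 of 11 granulocyte genes tested were called, 3 higher in LK cells (Elane by 3.12 ± 0.42, Mpo by 1.28 ± 0.30 and Prtn3) and 3 lower (Csf3r by -1.42 ± 0.28, Lyz2 by -1.22 ± 0.27 and Csf2rb), as were 2 of 10 monocyte and dendritic genes, Ly6c2 (2.46 ± 0.37) and Ctss (-0.93 ± 0.24). Of 22 relatives 5 were higher and 5 lower, among them Klf1 (3.21 ± 0.22), Klf5 (2.15 ± 0.56) and Irf1 (-2.04 ± 0.21). Of 23 cofactors 11 were lower in LK cells, among them Meis1 (-2.62 ± 0.31) and Trib1 (-2.41 ± 0.73), and 1 higher, Trib2 (2.28 ± 0.19). Of the Myb targets, Bcl2 (-1.83 ± 0.20) and Kit (-0.74 ± 0.18) were lower and Ccnb1 (0.69 ± 0.17) was higher. With IL-1β, when 8.32% of all genes were called on 2 against 2 libraries, the calls were 3 of 14 granulocyte genes, led by Cd177 (2.03 ± 0.48) and Elane (1.60 ± 0.23), 2 of 10 monocyte and dendritic genes, 3 of 21 relatives, 1 of 23 cofactors and 1 of 4 Myb targets.

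Markers of other cells moved alongside these factors. For scale, edgeR called 6.77% of all genes higher and 2.57% lower in LK cells, and 0.32% higher and 0.312% lower in LSK cells. An unadjusted p under 0.05 was reached by 24.7% of all genes in LK and 18.5% in LSK cells. The summed level of 10 neutrophil markers, 4 of which are also among the granulocyte genes, was 6.45 to 14.5 CPM with PBS and 155 to 336 CPM with IL-1β in LK cells, and 5.27 to 10.7 and 23.5 to 67.9 CPM in LSK cells. In LK cells 3 of 7 tested were called higher (S100a9, S100a8 and Cd177), and in LSK cells edgeR called 0 of 7, with 4 at an unadjusted p under 0.05 and 4 called by DESeq2. Ly6g, a marker of mature neutrophils, was at 0 read pairs in every library, MSC included, so its level cannot separate the groups. The marrow had been lineage-depleted before sorting, a step meant to remove mature neutrophils and erythroid cells, and how many remained was not tested. In LK cells the sum of 5 mast cell and basophil markers was 143 to 398 CPM with PBS and 1227 to 2350 CPM with IL-1β, with 3 of 5 called higher, and that of 10 erythroid markers was 2298 to 2859 and 1459 to 1639 CPM, with 4 of 10 called lower. Of 4 megakaryocyte markers tested in LK cells Vwf was called lower (-1.58 ± 0.28), and 4 had an unadjusted p under 0.05, with Pf4 at -1.63 ± 0.50, Gp9 at -1.54 ± 0.44 and Itga2b at 0.93 ± 0.34, none of these 3 called. In LSK cells the mast cell and basophil sum was 81.4 to 128 and 297 to 375 CPM, with 2 of 5 called higher, and the sum of 7 stem and progenitor markers was 1319 to 1766 CPM with PBS and 798 to 875 CPM with IL-1β and Flt3 was among those called lower. The 5 T-cell markers summed to at most 0.379 CPM in any sorted library. The sum of 12 macrophage markers overlapped between treatments in both populations (134 to 217 CPM over all 10 libraries). Of 10 tested in LK cells 2 were called, Csf1r lower (-2.49 ± 0.40) and Fcgr3 higher (1.82 ± 0.27). In LSK cells edgeR called 0 of 10, with 2 at an unadjusted p under 0.05 and 1 called by DESeq2. The part of these other cells in the results above was not tested.

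In cultured MSC the levels of 3 factors were at or near 0, and 2 of the others rose. Spi1 (159.9 RPKM) and Cebpa (155 RPKM) led with PBS, overlapping, followed by Cebpb at 96.0 RPKM, and with IL-1β Cebpb led at 197 RPKM. Cebpe, Gfi1 and Myb held 0 to 4 read pairs in each library, where 3 read pairs correspond to 0.0984 to 0.5 CPM, and were not tested. Of the 6 tested, 2 were called, both higher, where 11.4% of 13239 genes were called, 7.14% higher and 4.31% lower. The libraries of 4 of the 6 lay higher with IL-1β without overlap, as did 31.3% of all genes, and the median log2 fold change was 0.29, against 0.00 over all genes.

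Cebpb was at 140.2 and 148 CPM with PBS and at 289 and 302 CPM with IL-1β in MSC, a log2 fold change of 1.03 ± 0.10 (SE, edgeR, adjusted p = 0.00503). Cebpd was at 39.5 and 41.6 CPM with PBS and at 96.9 and 103 CPM with IL-1β, giving a log2 fold change of 1.30 ± 0.10 (edgeR, adjusted p = 0.00279). Both pairs of libraries were close together and far from the other pair. Neither was called without IL-1β library 1 or 2, although both then had an unadjusted p under 0.05, which 30.0% of all genes had in the full comparison, and without PBS library 2 Klf4 was called as well (0.61, edgeR, adjusted p = 0.00584).

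The other 4 factors tested were not called in MSC. Cebpa was at 344 and 471 CPM with PBS and at 358 and 413 CPM with IL-1β (-0.08 ± 0.18, edgeR, adjusted p = 0.797). Irf8 was at 206 and 243 CPM with PBS and at 233 and 247 CPM with IL-1β (0.10 ± 0.12, adjusted p = 0.651). Both of these overlapped between treatments. Spi1 was at 430.5 and 432 CPM with PBS and at 487 and 495 CPM with IL-1β (0.19 ± 0.10, edgeR, adjusted p = 0.275), and Klf4 at 17.5 and 13.3 and at 21.4 and 18.1 CPM (0.38 ± 0.19, adjusted p = 0.247), both without overlap. The ratio of Cebpb to Cebpa moved from -0.67 ± 0.26 to 0.43 ± 0.10 on the log2 scale (mean ± SD, n = 2 each), a shift of 1.10 (exact permutation p = 0.333, the smallest that 2 against 2 libraries allow, adjusted 0.75).

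The MSC cultures did not hold stromal transcripts alone. All 12 macrophage markers were present, with a summed level of 14045 to 18591 CPM with PBS and 35222 to 36152 CPM with IL-1β. Of the 12, 6 were called higher, where 7.14% of all genes were. Csf1r, Cd14, Lyz2 and Ccr2 stand both in that list and among the myeloid genes counted here. The 10 mesenchymal markers summed to 1292 to 2443 CPM with PBS and 2470 to 2817 CPM with IL-1β, and Lepr was at 0 in both PBS libraries. The part of macrophages in the levels of Spi1, Irf8, Cebpa and Cebpb was not tested.

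In the same cultures 6 of 8 granulocyte genes tested were called, all higher, led by Lcn2 (6.07 ± 0.19), Camp (5.45 ± 0.42), Mmp8 (2.99 ± 0.29) and Lyz2 (1.77 ± 0.21). For scale, in this and the lists that follow, 7.14% of all genes were called higher and 4.31% lower in MSC. Of 9 monocyte and dendritic genes 4 were called, all higher, Ms4a6c (1.94 ± 0.13), Cd14 (1.40 ± 0.15), Csf1r (1.25 ± 0.27) and Ly86 (0.76 ± 0.18), of which Ms4a6c, Csf1r and Ly86 were called lower in LK cells. Of 20 relatives 4 were called, all higher, led by Irf7 (4.41 ± 0.33), a mediator of interferon responses. Of 26 cofactors 4 were higher, led by Trib1 (1.10 ± 0.12), and 4 lower, led by Egr2 (-1.97 ± 0.39) and Egr1 (-1.31 ± 0.21). Of 4 Myb targets, Kit (-2.47 ± 0.56) and Myc (-0.97 ± 0.15) were called lower.

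Over the 10 sorted libraries, the genes whose log2 CPM followed each called factor most closely were sought among 9388 genes by Pearson's r. Nearest to Cebpa were Mgat2 (0.982) and Pgk1 (0.981), and nearest to Cebpb were Pafah1b2 (0.958) and Cd47 (0.955). Spcs2 (0.988) and Sdf2l1 (0.979) lay nearest to Cebpd, and Gsr (0.992) and Igsf6 (0.990) to Cebpe. Impdh1 (0.984) and Gpi1 (0.969) lay nearest to Gfi1, and Scd2 (0.980) lay near to Spi1. For the factors that fell they were Tmem268 (0.982) and Scpep1 (0.964) for Irf8 and Wdr82 (0.960) and Nfix (0.948) for Klf4. These libraries share treatment, population and depth differences, so the values describe likeness of pattern only.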

How the data were processed

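Counts of read pairs per gene were analysed for 14 libraries. Per the file headers and the labels, the deposited counts were made by the authors with fastp 0.20.0, HISAT2 2.0.1, SAMtools 1.10 and featureCounts 2.0.2 on GRCm38, reverse-stranded and not normalized; the methods name GenomicAlignments for counting. The deposited gene length column gave RPKM. Symbols (GENCODE M21) matched 55141 of 55487 identifiers.

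Groups and replicate numbers came from the sample titles. Each comparison was fitted separately with edgeR 4.0.16 under R 4.3.3 (filterByExpr, then TMM, then the robust quasi-likelihood test), with Benjamini-Hochberg adjustment over all genes tested. The study's thresholds set the calls (adjusted p below 0.05, log2 fold change beyond 0.5). The SE is the fold change divided by the square root of F. CPM and ratios for LSK and LK were scaled together, and MSC apart. Single values were compared by exact two-sided permutation. The test was checked on simulated data.

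The main fits used no pairing, and only the replicate block treated LSK and LK libraries of the same number as pairs. Deviations from group means correlated at 0.12, 0.11 and 0.38 in the PBS pairs (-0.31 to 0.15 between different numbers). They correlated at 0.12 in both IL-1β pairs, which are equal by construction with 2 libraries per group. The numbers come from the titles, which do not tie them to mice, and different numbers reached 0.15, so the pairing is an assumption.

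Alternatives were DESeq2 1.42.0, its size factors, no filter on low counts, a replicate block, a joint fit, a pseudocount of 1 and each library left out. At most 4 called genes of largest fold change were named per list and comparison, and all 9 factors throughout. Ms4a6c in LK cells fell outside that rule, and a few genes that the rule names are not reported here. The factors and lists were chosen with earlier results of these data known. Promoters are RefSeq's (GRCm38.p6). Interval and floor cover counting error only, since PCR copies are not independent molecules.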

Additional observations from a re-analysis of the deposited data

How the results depend on the processing

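In total 398 of the fold changes of single factors under an alternative kept their direction and side of the threshold, 37 gained it, 33 lost it and 34 changed sign, and no change called at first changed sign. The cause of these shifts was not tested unless the setting itself removes libraries. Over all genes, calls in LSK cells numbered 83 (42 higher, 41 lower) and became 891 with DESeq2, 869 without the filter and 1228 in the joint fit, and 3 to 480 with a library left out. The factors called in LSK cells, 1 at first, became 7, 7 and 6 under those settings and 0 to 4. In LK cells 1199 genes became 1844 without the filter, 489 in the joint fit and 66 to 2409 with a library left out, and 8 factors became 5 in the joint fit and 2 to 8. In MSC 1515 genes became 2354 without the filter and 38 to 3819 with a library left out, and 2 factors became 0 to 3. Between populations with PBS, 3980 genes became 2145 to 4965 and 2 factors became 1 without the filter and 0 to 3. With IL-1β, 977 genes became 2164 without the filter and 358 to 4170, and 1 factor became 2 with DESeq2 and without the filter and 0 to 4. The interaction called 4 genes, 334 by DESeq2, 398 without the filter and 0 to 336 with a library left out.

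With the replicate block, 702 genes and 6 factors were called in LSK and 2331 genes and 8 factors in LK cells; same-numbered PBS and IL-1β libraries correlated between -0.13 and 0.18, so these share only a number. With the populations taken as pairs, the block gave 2057 genes and 2 factors with IL-1β and 24 genes in the interaction. It moved Cebpb with IL-1β to 0.16 and changed no other call of a factor. For MSC no block was fitted, because the MSC groups share only replicate number 2.

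The sign changes were in differences that were not called, most of them near 0. Among the factors the largest were Cebpd in the interaction (-0.47 ± 0.45) and Klf4 between populations with PBS (-0.44 ± 0.63). Between populations with IL-1β, Cebpb was 0.01 without the filter and -0.62 to 0.94 with a library left out, and Cebpd -0.0038 with DESeq2 and -0.43 to 0.61. With PBS, the ranges with a library left out were -0.29 to 0.42 for Cebpb, -0.32 to 0.17 for Gfi1, -0.84 to 0.19 for Klf4 and -0.13 to 0.11 for Myb. They were -0.13 to 0.23 for Myb in treated LSK cells, and in MSC -0.28 to 0.17 for Cebpa and -0.01 to 0.23 for Irf8. In the interaction Cebpa was -0.05 with DESeq2 and with its size factors, -0.11 without the filter and -0.30 to 0.33 with a library left out, while Cebpb ranged from -0.68 to 0.88, Cebpd from -0.93 to 0.11 and Irf8 from -0.86 to 0.40. The shift of Cebpb to Cebpa ranged from -0.45 to 0.75 in LSK and from -0.10 to 0.39 in LK cells. In MSC Gfi1 to Irf8 ranged from -0.58 to 0.27, and Spi1 to Gata1 was 0.16 with a pseudocount of 1 and -0.31 to 0.20. The read pairs of Klf4 with IL-1β, and of Cebpe, Gfi1 and Myb in MSC, are too few to show a difference of their own.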
